A study of Rattus norvegicus with 6 samples.

Results

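The enzymes that build cholesterol and fatty acids, with the factors that control them, were examined in the renal cortex of rats given o-anisidine. The genes were 30 chosen by name and function, with earlier results of these data known. They were 22 of sterol synthesis and its control, and 8 of fatty acid synthesis and its control. They were found on the array through the RefSeq accession of each probe, and the brightest probe that was detected stood for the gene. All 22 sterol genes were tested, and 6 of the 8 fatty acid genes, which makes 28 of the 31087 genes tested in all. Of the 31087, 12009 had a gene symbol. The rest, known only by the array's identifier, also count in each share of all genes below, while all members have symbols. Srebf1 matched no probe and is not analysed here. Scd, which encodes the stearoyl-CoA desaturase, has 2 probes: the brighter was well above background on 1 of 3 control arrays and on 0 of 3 treated arrays, and the other on none, so that no level or fold is given for it.

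Cells make cholesterol from acetyl-CoA through mevalonate, farnesyl diphosphate, squalene and lanosterol. When membrane sterol falls, SCAP escorts SREBP2, the product of Srebf2, out of the endoplasmic reticulum, and the cleaved factor switches on most enzymes of the route. INSIG1 holds SCAP back when sterol is plentiful, and Insig1 is itself a target of SREBP. Fatty acid synthesis is driven more by SREBP1, the product of Srebf1. In the kidney, tubule cells both make cholesterol and take it up.

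Renal cortex came from male Sprague-Dawley rats that were 5 weeks old when bought. Control rats (3) received water, and treated rats (3) received o-anisidine hydrochloride, an aromatic amine, at 700 mg/kg/day, in both groups for 4 weeks. RNA of each rat was measured on 1 single-colour (Cy3) Agilent array, and values are log2 of the processed signal relative to the 75th percentile of that array. Replicate numbers are those of the titles. Neither the route of dosing nor any time off treatment is given in the sources used here.

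Of 61657 probes, each array had 41670 to 43630 that cleared the background flag of the scanner software (well above background), and 0 spots were saturated. Lrp2 and Cubn, the endocytic receptors megalin and cubilin of the proximal tubule, were well above background on all 6 arrays. The slide that carried o-anisidine 3 also carried all 3 controls, while a different slide carried o-anisidine 1 and 2. After o-anisidine 11 genes had passed the threshold as higher and 8 as lower (limma, Benjamini-Hochberg over all genes, two-sided, threshold 0.05), and the median log2 change was 0.0037. In whole tissue, more RNA per cell and more cells of a type cannot be told apart.

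Sterol synthesis genes had higher signals after o-anisidine in most of the route, by small amounts. Of 22 genes, 20 had a log2 change above 0, against 50.9% of all genes, and the median was 0.19, or 1.14-fold. On all 3 treated arrays 13 of the 22 (59.1%) lay above all 3 controls, against 9.55% of all genes. None passed the threshold over all genes (limma), against 0.0354% of all genes called higher, 0.0257% called lower and 0.0611% called in either direction, and the smallest adjusted p was 0.134. None lay below all controls on all treated arrays, against 8.88% of all genes. At an unadjusted p under 0.05, 10 of 22 were higher (45.5%) and 0 lower, against 6.36% and 5.14% of all genes. With limma's trend and robust options the count of called members was also 0. The members were chosen with earlier results of these data known, so these counts describe the genes and are not a test of the list.

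**Figure D1:**
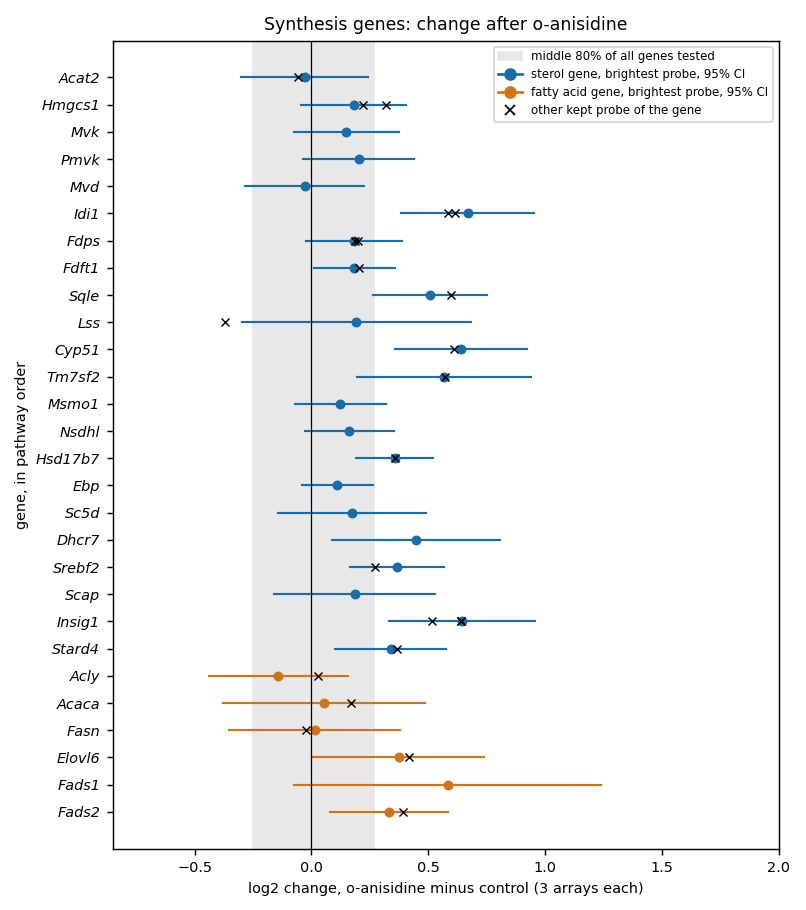
Log2 change (o-anisidine minus control, 3 arrays each) of the 28 tested genes in pathway order, with 95% confidence intervals from limma; crosses are other probes of the same gene and the grey band holds the middle 80% of all genes tested, from -0.25 to 0.27. Idi1, Cyp51, Insig1, Tm7sf2 and Sqle lie farthest to the right among sterol genes, at 0.51 to 0.67, while Acat2 and Mvd lie at -0.03.

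Of the 7 enzymes from acetyl-CoA to farnesyl diphosphate, Idi1 differed most. It encodes isopentenyl diphosphate isomerase, which supplies the starter unit of every isoprenoid. Its log2 signal was 1.37, 1.15 and 1.04 on control 1, 2 and 3, and 1.76, 1.80 and 2.01 on o-anisidine 1, 2 and 3. All treated values lay above all controls, with a gap of 0.39 between the groups. The log2 change was 0.67 (SE 0.12, adjusted p = 0.134), a 1.59-fold difference with a 95% interval of 1.30 to 1.94. Both other probes of Idi1 gave similar changes, 0.62 and 0.58.

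The other enzymes of this stretch differed less. Hmgcs1 encodes the synthase that makes HMG-CoA. It lay at 3.01, 2.98 and 2.82 in controls and at 3.12, 3.01 and 3.22 after o-anisidine, so that the groups were parted by a gap of only 0.0017. Its log2 change was 0.18 (SE 0.09, adjusted p = 0.509), and its 2 other probes gave 0.22 and 0.32. Fdps, the synthase of farnesyl diphosphate, had a log2 change of 0.18 (SE 0.08) on its brightest probe and of 0.19 and 0.20 on its others. Pmvk, a mevalonate pathway kinase, had 0.20 (SE 0.10), with groups that also did not overlap, and 0.13 without o-anisidine 3.

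Mvk, the mevalonate kinase, had a log2 change of 0.15 (SE 0.09), with o-anisidine 3 (-1.78) inside the range of the controls (-1.81 to -1.73). It was 0.10 without o-anisidine 2, 0.23 without o-anisidine 3 and 0.08 with normexp background correction. Acat2, the cytosolic thiolase that starts the route, and Mvd, the decarboxylase just before Idi1, each had a log2 change of -0.03. The 95% interval was -0.30 to 0.24 for Acat2 and -0.28 to 0.23 for Mvd, so that for both a change as large as the log2 0.67 of Idi1 lay outside the interval. The median of the 7 genes was 0.18.

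The next 3 enzymes turn farnesyl diphosphate into lanosterol. Sqle encodes squalene epoxidase, the first oxygen-requiring step. Its log2 signal was 1.73, 1.52 and 1.43 on controls and 2.06, 2.12 and 2.02 after o-anisidine, so that the lowest treated array stood 0.28 above the highest control. The log2 change was 0.51 (SE 0.10, adjusted p = 0.159), or 1.42-fold, and the other probe gave 0.60. For Fdft1, the squalene synthase, values of 3.00, 3.10 and 3.00 stood against 3.27, 3.20 and 3.18, a smaller shift of 0.18 (SE 0.07, adjusted p = 0.414) without overlap.

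Lss, the lanosterol synthase, had the widest gap between its probes. On the brightest probe its log2 change was 0.19 (SE 0.20), with o-anisidine 1 and 2 at 1.29 and 1.17 above all controls (0.65 to 0.97) and o-anisidine 3 at 0.58 below them. The other probe gave -0.37 (SE 0.19), and the mean of both -0.09. Leaving out 1 array moved the brightest probe to between 0.06 (without o-anisidine 1) and 0.41 (without o-anisidine 3). No direction is given for Lss.

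From lanosterol to cholesterol, all 8 genes had a log2 change above 0, with a median of 0.27 and a range from 0.11 to 0.64. Cyp51, the P450 that demethylates lanosterol, was at -0.22, -0.59 and -0.47 on the controls and at 0.33, 0.18 and 0.14 on the treated arrays. The groups were separated by 0.36. The log2 change was 0.64 (SE 0.12, adjusted p = 0.139), or 1.56-fold with a 95% interval of 1.28 to 1.90, and the other probe gave 0.61. Tm7sf2, a sterol reductase that acts on the product of Cyp51, had values of 2.05, 1.74 and 2.15 against 2.46, 2.39 and 2.78. Its 2 probes agreed at 0.57 each (SE 0.15 on the brightest, adjusted p = 0.280).

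Hsd17b7 encodes the ketoreductase of the complex that strips methyl groups from the sterol ring. Its arrays lay close together within each group: -1.67, -1.73 and -1.78 in controls, and -1.35, -1.35 and -1.41 after o-anisidine. The log2 change was 0.36 (SE 0.07, adjusted p = 0.151), the same on its other probe, and leaving out any 1 array gave 0.33 to 0.38. The partners of Hsd17b7 in that complex had smaller changes, 0.12 (SE 0.08) for Msmo1 and 0.16 (SE 0.08) for Nsdhl, both with overlapping groups. Without control 3, Msmo1 had 0.07.

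Dhcr7, the reductase of the last step, was at 1.93, 2.01 and 2.33 in controls and at 2.69, 2.33 and 2.60 after o-anisidine. Control 3 was just above o-anisidine 2, so the groups overlapped, and the log2 change was 0.45 (SE 0.15, adjusted p = 0.360). Ebp, a sterol isomerase, showed the smallest positive change of the 8, 0.11 (SE 0.06), yet its groups did not overlap (3.84 to 3.88 against 3.96 to 3.99). Sc5d, a sterol desaturase, had 0.17 (SE 0.13), with the 3 treated arrays at 1.12 to 1.19 and the controls spread from 0.71 to 1.18. Without control 2 it was 0.04.

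Among the genes that control the route, Insig1 had the largest change. Its log2 signal was 2.43, 2.23 and 2.70 on controls and 3.14, 3.09 and 3.07 after o-anisidine. The treated arrays were tightly grouped (SD 0.04), the controls were not (SD 0.24), and the gap was 0.36. The log2 change was 0.64 (SE 0.13, adjusted p = 0.161), or 1.56-fold, and its other probes gave 0.64, 0.64 and 0.52. Srebf2 itself was at 1.63, 1.55 and 1.48 against 2.01, 1.91 and 1.83, a difference of 0.36 (SE 0.08, adjusted p = 0.208) with no overlap, and 0.27 on its other kept probe. Stard4, which encodes a cytosolic sterol carrier, had 0.34 (SE 0.10, adjusted p = 0.308), again without overlap. Scap had 0.18 (SE 0.14) with overlapping groups: o-anisidine 1, at 1.75, lay within the controls (1.70 to 1.98). Its value was 0.07 without o-anisidine 2 and 0.30 without o-anisidine 1.

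**Figure D2:**
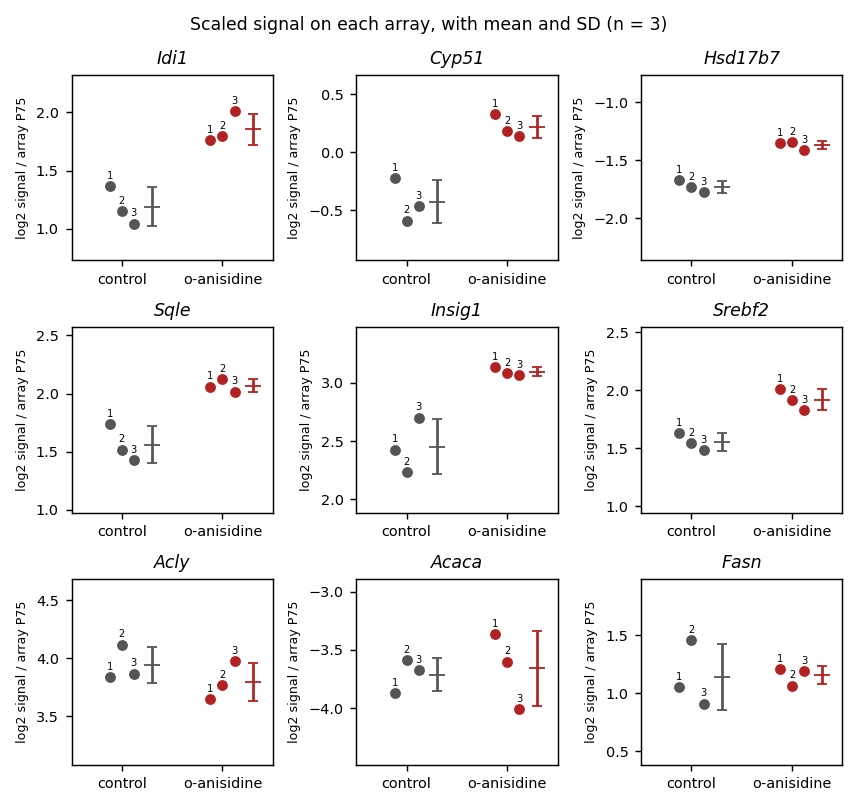
Array-scaled log2 signal (y axis, each panel spanning the same log2 range) for 6 sterol genes and 3 fatty acid genes, with points numbered by replicate and the mean and SD of 3 arrays beside them. Treated arrays lie above all controls for Idi1, Cyp51, Hsd17b7, Sqle, Insig1 and Srebf2, and overlap the controls for Acly, Acaca and Fasn.

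Promoters are shown for 5 of the sterol genes with the smallest p-values, because genes under SREBP2 control usually pair its binding site with a CCAAT box, the site of NF-Y. RefSeq windows of the GRCr8 build, from 250 bases before to 50 after the annotated start, were on hand for 23 of the 30 genes. For Sqle, Pmvk, Fdft1, Stard4, Acaca, Fasn and Elovl6 there was no entry. The 250 bases before the start are printed for Idi1, Insig1, Hsd17b7, Srebf2 and Cyp51, with CCAAT on either strand in capitals (ATTGG where it lies on the other strand).
Idi1 promoter, GRCr8 chr17:66547525-66547774, minus strand: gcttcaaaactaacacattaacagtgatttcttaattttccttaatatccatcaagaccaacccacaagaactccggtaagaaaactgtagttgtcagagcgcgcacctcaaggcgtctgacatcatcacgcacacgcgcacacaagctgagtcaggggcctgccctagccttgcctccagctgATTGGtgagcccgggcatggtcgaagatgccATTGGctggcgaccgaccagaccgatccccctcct
Insig1 promoter, GRCr8 chr4:8057770-8058019, minus strand: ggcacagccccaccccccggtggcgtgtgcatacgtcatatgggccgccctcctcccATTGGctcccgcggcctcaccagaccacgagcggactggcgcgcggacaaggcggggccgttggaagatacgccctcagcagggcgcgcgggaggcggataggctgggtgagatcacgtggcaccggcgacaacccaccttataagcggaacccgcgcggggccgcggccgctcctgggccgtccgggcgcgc
Hsd17b7 promoter, GRCr8 chr13:84722755-84723004, minus strand: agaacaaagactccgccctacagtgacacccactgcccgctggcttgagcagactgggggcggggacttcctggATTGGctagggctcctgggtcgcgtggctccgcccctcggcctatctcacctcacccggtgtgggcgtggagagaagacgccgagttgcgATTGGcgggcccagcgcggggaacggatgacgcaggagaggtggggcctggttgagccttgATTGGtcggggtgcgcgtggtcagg
Srebf2 promoter, GRCr8 chr7:115543057-115543306, plus strand: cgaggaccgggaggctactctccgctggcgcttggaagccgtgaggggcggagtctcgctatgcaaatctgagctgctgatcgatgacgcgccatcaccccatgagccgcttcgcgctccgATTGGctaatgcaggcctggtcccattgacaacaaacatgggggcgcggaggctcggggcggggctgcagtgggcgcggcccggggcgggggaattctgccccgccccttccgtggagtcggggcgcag
Cyp51 promoter, GRCr8 chr4:30991443-30991692, plus strand: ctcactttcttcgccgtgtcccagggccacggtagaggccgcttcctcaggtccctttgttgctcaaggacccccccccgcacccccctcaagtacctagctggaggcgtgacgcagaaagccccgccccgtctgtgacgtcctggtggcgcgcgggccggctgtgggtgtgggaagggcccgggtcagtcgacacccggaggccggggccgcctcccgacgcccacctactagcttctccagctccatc

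The letters CCAAT were found on either strand in 14 of 18 sterol gene windows (77.8%), against 37.5% of all 33469 windows and 37.8% of the 10275 windows of tested genes. In Idi1 they began 66 and 35 bases before the start, in Insig1 193, in Srebf2 129, and in Hsd17b7 176, 86 and 25. Cyp51 was among the 4 sterol windows without them. The median log2 change was 0.18 for the 14 genes with the letters and 0.32 for the 4 without, given as a description of few genes. Of 5 fatty acid genes with windows 3 held them. TCACNCCAC, the core of the sterol regulatory element, was in 0 of 18 sterol windows, 1.12% of all windows and 1.07% of those of tested genes, and the E-box CACGTG was in 3 of 18 (16.7%), against 6.42% of all windows and 8.69% of those of tested genes. Both strands were searched for each motif, and a match to TCACNCCAC may share its last base with a CCAAT. These are letter matches only: they show no binding, and the absence of a motif says only that those letters are not in the window.

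Among the fatty acid genes, the enzymes that make the carbon chain had signals that overlapped between the groups. Acly, which supplies cytosolic acetyl-CoA to both routes, was at 3.84, 4.12 and 3.87 in controls and 3.65, 3.77 and 3.97 after o-anisidine, a log2 difference of -0.14 (SE 0.12, adjusted p = 0.690) on its brightest probe and 0.03 on the other. Acaca, the acetyl-CoA carboxylase that commits carbon to fatty acids, gave -3.87, -3.59 and -3.68 against -3.37, -3.60 and -4.01, with treated arrays on either side of the controls and a log2 change of 0.05 (SE 0.18). Fasn, the fatty acid synthase, had 1.06, 1.46 and 0.91 against 1.21, 1.07 and 1.19, a log2 change of 0.01 (SE 0.15). Its 95% interval, -0.35 to 0.38, includes shifts as large as that of Srebf2, so this does not show that Fasn was the same in both groups.

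The 3 members that lengthen and desaturate the chain had higher means after o-anisidine, and for Fads1 and Elovl6 the groups overlapped. Fads2, which encodes the delta-6 desaturase of polyunsaturated fatty acids, was at -0.69, -0.48 and -0.54 in controls and at -0.15, -0.16 and -0.40 after o-anisidine. It was the only tested fatty acid gene whose groups did not overlap (1 of 6, 16.7%, against 9.55% of all genes above all controls). Its log2 change was 0.33 (SE 0.10, adjusted p = 0.336), and 0.39 on its other probe. Within the slide that held all controls and o-anisidine 3 it was 0.17. Fads1, the partner desaturase, spread widely in controls (0.16, 0.65 and 1.01) and reached 1.41, 0.77 and 1.40 after o-anisidine, for a log2 change of 0.58 (SE 0.27, adjusted p = 0.471). Without control 1 it was 0.36. Elovl6, the elongase of palmitate, was at 1.15, 1.02 and 1.32 against 1.26, 1.76 and 1.60, with o-anisidine 1 among the controls. Its log2 change was 0.37 (SE 0.15, adjusted p = 0.428), and 0.42 on the other probe.

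**Figure D3:**
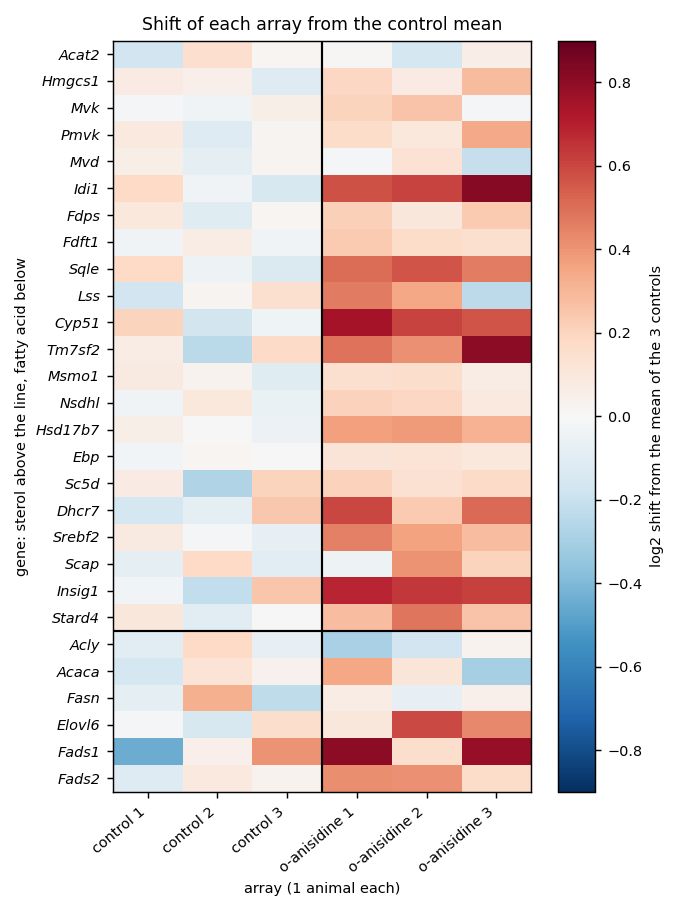
Heat map of the log2 shift of each array (columns, 1 animal each) from the mean of the 3 controls for the 28 tested genes (rows, in pathway order, fatty acid genes below the line). On o-anisidine 1, 2 and 3, 20, 21 and 19 of the 22 sterol genes are above the control mean. On control 1, 2 and 3 the counts are 13, 8 and 11.

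The sterol and fatty acid genes had the same rounded median, 0.19. The median shift of the sterol genes was 0.06, -0.03 and 0.00092 on control 1, 2 and 3, and 0.23, 0.25 and 0.24 on the treated arrays in replicate order. That of the fatty acid genes was 0.22, 0.14 and 0.11 on the treated arrays and -0.11, 0.10 and 0.03 on the controls, with the highest control close to the lowest treated array. The sterol median minus the fatty acid median was 0.0042, 0.11 and 0.13 on the treated arrays, inside the range of the controls (-0.14 to 0.17). Within the fatty acid genes, the median was 0.01 for the 3 enzymes of synthesis and 0.37 for the 3 of elongation and desaturation; this difference was not tested. Taking the treated arrays singly, 19 (86.4%), 19 (86.4%) and 15 (68.2%) of the 22 sterol genes lay above all 3 controls on o-anisidine 1, 2 and 3, against 32%, 33.4% and 25.2% of all genes.

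**Figure D4:**
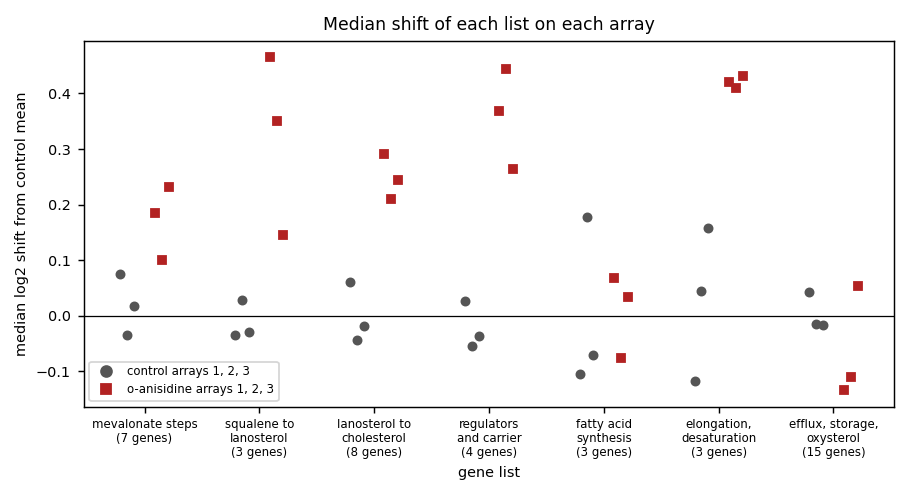
Median log2 shift from the control mean (y axis) of 7 gene lists (x axis) on each control array (circles) and treated array (squares), in replicate order from left to right. The 4 sterol lists and the list of elongation and desaturation have all treated arrays above all controls, while treated and control arrays overlap for fatty acid synthesis and for efflux, storage and oxysterol genes.

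Repeat probes gave a check within the arrays. For 18 of the tested genes the array held 23 further kept probes, which read the same RNA and are not replicates of the condition. Of these, 20 had a log2 change of the same sign as the brightest probe, and 21 lay within 0.15 of it. The exceptions in sign were Lss, Acly and Fasn.

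Related genes that were not members were taken from lists of the same pathways. In the list of other sterol synthesis and SREBP processing genes, 0 of 10 passed the threshold in either direction, 6 were above 0, and the median log2 change was 0.04. All treated arrays lay above all controls for 1 of the 10 and below them for 2, against 9.55% and 8.88% of all genes. Tmem97, which encodes a sterol-binding membrane protein, had the smallest p: 0.69, 0.77 and 0.81 in controls and 1.25, 1.13 and 1.26 after o-anisidine, a log2 difference of 0.46 (SE 0.08, adjusted p = 0.124) without overlap. Por, the reductase that feeds electrons to Cyp51 and other P450 enzymes, followed with 0.32 (SE 0.14, adjusted p = 0.462). Of the proteases that cleave SREBP, Mbtps1 had -0.08 (SE 0.06) with all treated arrays below all controls, and -0.17 on its other probe. Mbtps2 had 0.06 (SE 0.10), and -0.13 on its other probe. Insig2, the paralogue of Insig1, had -0.10 (SE 0.08). The last 3 were named after their values were seen.

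In the list of other fatty acid and glyceride synthesis genes, 0 of 21 passed, 12 were above 0 and the median was 0.03. Fads3, a relative of Fads1 and Fads2, had a log2 change in the other direction, -0.36 (SE 0.10, adjusted p = 0.285), with 1.74, 1.84 and 1.81 in controls and 1.45, 1.59 and 1.28 after o-anisidine. Other elongases and desaturases of the list, named after their values were seen, had changes of either sign with overlapping groups: -0.22 (SE 0.11) for Elovl1, -0.10 (SE 0.09) for Elovl7, 0.11 (SE 0.10) for Elovl5 and 0.13 (SE 0.22) for Scd2. Acacb, the mitochondrial carboxylase that regulates fat oxidation, had 0.19 (SE 0.08, adjusted p = 0.458), but 0.03 with normexp background correction and -0.04 on its other probe.

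Genes of sterol efflux, storage and oxysterol handling had a median log2 change of -0.04 over 15 tested, with 0 passing, 7 above 0 and 8 below. All treated arrays lay below all controls for 3 of the 15 and above them for 0, against 8.88% and 9.55% of all genes. The 3 were Mylip, Soat1 and Npc2, of which Npc2 had -0.21 (SE 0.10), and -0.10 within the slide that holds both groups. Mylip, an E3 ubiquitin ligase that liver X receptors induce when sterol is abundant, had the smallest p. It was at 0.35, 0.14 and -0.03 in controls and at -0.40, -0.47 and -0.46 after o-anisidine, so that all treated arrays lay below all controls (log2 change -0.60, SE 0.11, adjusted p = 0.143). Soat1, which esterifies cholesterol for storage, was lower on each treated array as well, at a log2 difference of -0.25 (SE 0.09, adjusted p = 0.369), which was -0.08 with normexp background correction. The liver X receptor genes themselves, Nr1h2 and Nr1h3, had -0.04 (SE 0.07) and 0.01 (SE 0.07), and their targets Abca1 and Abcg1 had 0.02 (SE 0.14) and -0.55 (SE 0.27). Abcg1 spread widely in controls (1.02, 1.35 and 0.26), and its change was -0.31 without control 2 and -0.86 without control 3. These 4 genes and Npc2 were named after their values were seen.

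**Figure D5:**
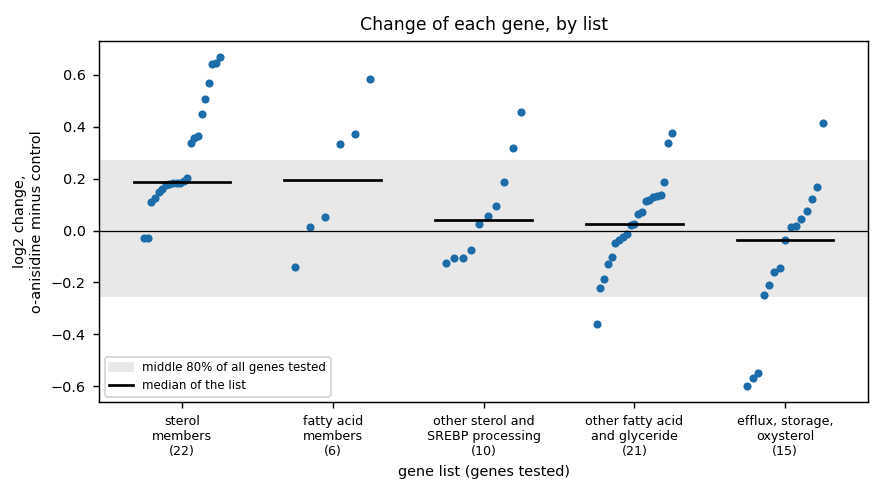
Log2 change (o-anisidine minus control) of each tested gene in 5 lists, sorted within a list, with the median of the list as a bar and the middle 80% of all genes as a grey band. The bar stands at 0.19 for sterol and for fatty acid members, at 0.04 and 0.03 for the other synthesis lists, and at -0.04 for efflux, storage and oxysterol genes.

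Markers of red cells and of cell division moved with the treatment alongside these genes. All 8 erythroid markers lay above the controls on each treated array (median log2 change 2.05), against 9.55% of all genes. Of the 8, 4 rose past the threshold (limma), against 0.0354% of all genes called higher: Kel (2.17, SE 0.08, adjusted p = 0.0020), Rhd (2.61, SE 0.12, adjusted p = 0.0048), Hemgn (1.97, SE 0.12, adjusted p = 0.0101) and Ahsp (2.34, SE 0.21, adjusted p = 0.0419). With slide as a block Kel kept the call (adjusted p = 0.0446) and Rhd (0.114), Hemgn (0.124) and Ahsp (0.163) lost it, and within the slide that holds both groups all 4 lost it (0.108 to 0.201), at log2 changes of 1.98 to 2.58. On leaving out 1 array, Kel stayed called each time, and Rhd lost the call without o-anisidine 3 (0.0539). The adjusted p of Hemgn was 0.0755 when control 1 was left out, 0.0731 for control 2, 0.0605 for o-anisidine 1 and 0.0561 for o-anisidine 3, each too high for a call. Ahsp lost it without any 1 array (0.0624 to 0.174) and with no filter on dim probes (0.107). Normexp background correction gave log2 changes of 0.98 for Kel and 1.30 for Hemgn. The summed signal of the list, as a multiple of the 75th percentile of the array, was 545 to 743 in controls and 1080 to 1299 after o-anisidine. The globin genes Hba-a1 and Hbb, its defining members, had log2 changes of 0.90 and 1.09 on their brightest probes, which set the summed signal, and of 1.86 and 1.84 on their other probes, and were detected on every array. All 6 tested of 8 division markers were higher without overlap (median 1.44), against 9.55% of all genes. None of the 6 passed the threshold (limma, smallest adjusted p = 0.0891). With normexp background correction Cenpf had 0.78 instead of 1.44, and Racgap1 0.59 instead of 0.90. The summed signals of the list were 2.14 to 2.80 in controls and 5.06 to 8.20 after o-anisidine, and the defining markers Mki67 and Top2a matched no probe. The part of red cells or of cell division in the sterol gene values was not tested.

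Adrenal cortex and fat, which lie beside the kidney and are rich in sterol or lipid, were checked through their markers. Of the adrenal cortex markers 4 of 7 were tested, with a median log2 change of 0.27 and overlapping groups for each. Star was not well above background on any array, and the summed signal was 0.784 to 0.954 in controls and 0.809 to 1.25 after o-anisidine. Of the adipocyte markers 6 of 8 were tested, 3 above 0 and 3 below, with a median of -0.03. Only 1, Ucp1, was lower on each treated array (-0.51, SE 0.11), against 8.88% of all genes. Ucp1 had -0.13 with normexp background correction, and the smallest adjusted p of the list was 0.207 (limma). Adipoq was at 0.42, -0.11 and -0.32 against -0.13, 0.19 and 0.10, with overlap, and the summed signal was 1.95 to 2.31 against 1.96 to 2.63. Fabp4, well above background on 2 of 3 controls, spread widely: -6.84, -2.90 and -1.33 in controls and -5.25, -4.82 and -3.44 after o-anisidine. Its log2 change was -0.81 (SE 1.40), with -2.39 without control 1 and 0.37 without control 3. Cidec had 0.41, and 0.83 within the slide that holds both groups. Plin1 matched no probe. Nephron and other markers had medians of 0.04 (proximal tubule, 8 tested), -0.17 (thick ascending limb, 3), -0.10 (distal and collecting duct, 6), -0.08 (podocyte, 5), -0.13 (endothelium, 5) and -0.15 (macrophage and leukocyte, 6). In the last list Cd52, a leukocyte surface glycoprotein, rose by 2.12 (SE 0.17, adjusted p = 0.0380). Its call was lost with slide as a block (0.151), within the slide (0.178), with no filter on dim probes (0.0999) and without any 1 array (0.0601 to 0.129), while Aif1, a macrophage gene, had -0.24 (SE 0.09). The other probes of Aif1 gave -0.08 and 0.03, with overlapping groups. In the distal and collecting duct list the summed signal was 154 to 162 in controls and 92.6 to 142 after o-anisidine. Aqp2, the water channel of the collecting duct, was lower on each treated array (-0.58, SE 0.22, adjusted p = 0.412; -0.33 without o-anisidine 1, and -0.22 on its other probe), and Scnn1g, a sodium channel subunit, had -0.34 (SE 0.13, adjusted p = 0.412) with overlap. The part of these shifts in the sterol and fatty acid gene values was not tested.

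Within the slide that held all controls and o-anisidine 3, the sterol median was 0.24 and the fatty acid median 0.11. The log2 changes there, which a fit with the slide as a block also gives, were 0.82 for Idi1, 0.80 for Tm7sf2, 0.61 for Insig1, 0.56 for Cyp51, 0.46 for Sqle, 0.32 for Hsd17b7 and 0.28 for Srebf2. They were -0.24 for Lss, -0.30 for Acaca and -0.01 for Mvk, each opposite in sign to the value over both slides. With 1 treated array on that slide, its spread is taken to equal that of the controls, and no member passed the threshold with the slide as a block (smallest adjusted p = 0.221) or within it (0.291). Over the alternatives tried, the smallest adjusted p of any member lay between 0.0594 and 0.335.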

How the data were processed

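Total RNA of renal cortex from 6 rats, 3 per group by the sample titles, was hybridised to single-colour arrays. Per the file headers, scanner output came from Agilent Feature Extraction 10.7.1.1 (10.7 in the submitters' processing notes), with a processed intensity for each spot after background subtraction and detrending, the median pixel intensity, and flags. The value table of the authors holds an intensity on a linear scale, deposited with no stated scaling, direction or centring. Set against the scanner files, a column was the processed signal divided by an array's 75th percentile (r = 1.00), with column medians of 0.104 to 0.108, and each matched another replicate of the same group (r with its own 0.991 to 0.993). Which numbering is right is unknown, and groups are unaffected.

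The processed signal was divided by the 75th percentile of each array and put on the log2 scale, over 61657 non-control probes. A probe was kept (42036) where it carried no outlier flag (16 did) and 1 group or both had it well above background on each of its 3 arrays. Accessions were matched without version to RefSeq (GRCr8) for names only: 27447 probes had a symbol and 34210 kept the array's identifier. The brightest kept probe stood for each of 31087 genes. Groups were compared with limma 3.58.1 in R 4.3.3 (lmFit, eBayes, no covariates; 4 residual and 2.11 prior degrees of freedom), with Benjamini-Hochberg adjustment over all genes, after the script was tested on simulated data. The number of arrays limits the precision.

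Alternatives were normexp background correction with an offset of 50, quantile and median scaling, the value table of the authors, other filters on dim probes, the mean of all probes of a gene, another variance model, slide and replicate number as blocks, and leaving out each array. Members and lists were chosen with earlier results of these data known. Named were all members, the 2 genes of smallest p in each related list, and marker genes that define a list or passed the threshold; other genes were chosen after their values were seen. Not every gene of these pathways is reported here.

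The main fit did not pair animals by the replicate numbers of the titles. The low correlations given below cannot exclude such a pairing, because which numbering is right is unknown.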

Additional observations from a re-analysis of the deposited data

How the results depend on the processing

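No member passed the threshold under any of the 17 alternatives. Of 476 member values under them, 454 kept their direction and 22, in 7 genes with small changes, did not. The count of members above all controls on all treated arrays, 14, was 13 to 19 under them; with fewer arrays to separate, that count is higher for all genes too (25.2% within the slide, 20.2% without o-anisidine 3).

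Genes called higher and lower over all genes numbered 11 and 8. They were 68 and 18 with normexp background correction, 91 and 29 with trend and robust variance, 2 and 1 with slide as a block, 1 and 1 within the slide that holds both groups, 5 higher with no filter on dim probes and 5 lower with all arrays above background. Leaving out each array gave 2 to 16 higher and 1 to 5 lower: 3 and 4 without control 1, 4 and 4 without control 2, 4 and 3 without control 3, 8 and 4 without o-anisidine 1, 16 and 5 without o-anisidine 2, and 2 and 1 without o-anisidine 3. The replicate numbers correlated at 0.020, 0.077 and 0.012 in deviations from the group means, not every array correlated best with its own number, and with the replicate block 1 gene was higher and 0 lower (1839 and 1445 at an unadjusted p under 0.05; smallest adjusted p of a member 0.228). Kel, Rhd, Hemgn, Ahsp and Cd52 all lost their call under the replicate block (0.0846 to 0.129).

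The sterol median, 0.19, was 0.25 with normexp, 0.24 with slide as a block or within the slide, and 0.20 to 0.24 without 1 array. The fatty acid median, 0.19, was 0.12 to 0.29 without 1 array, the highest without o-anisidine 3. The sterol median minus the fatty acid median, -0.0045, was 0.13 with slide as a block or within the slide, and -0.07 to 0.10 without 1 array.

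Turned values were 0.013 for Mvd with normexp; -0.090 for Lss and -0.0047 for Fasn with the mean of all kept probes; and, with slide as a block or within the slide, 0.060 for Acat2, -0.0083 for Mvk, -0.24 for Lss, 0.034 for Acly and -0.30 for Acaca. Leaving out arrays gave ranges of -0.12 to 0.047 for Acat2, -0.11 to 0.058 for Mvd, -0.093 to 0.23 for Acaca and -0.10 to 0.17 for Fasn. The causes of these shifts were not tested. With 3 arrays a group, precision is limited by their number.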
